A study of Mus musculus with 18 samples.

Results

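The lungs of mice gavaged with corn oil were set against the lungs of mice that received rodent chow alone. Neither group received a test chemical, so the comparison asks what vehicle and route of dosing leave in lung RNA by themselves. The 6 arrays were chosen by their titles out of 18 in the study, 3 named as corn oil gavage controls (animals 22, 24 and 25) and 3 as rodent chow feed controls (animals 27, 28 and 29). All were female B6C3F1 mice, a hybrid strain of rodent bioassays, 5 weeks old when exposure began and 18 weeks old when the right lung lobe was taken after 13 weeks. Corn oil was given by gavage at 5 ml/kg on 5 days per week. The feed controls had their chow on 7 days per week, and the labels name no gavage for them. The oil, the gavage and the schedule thus differed together and cannot be told apart. The other 12 arrays, 3 per chemical, served to estimate the spread between animals and as a backdrop. They came from mice given 1,5-naphthalenediamine (NDA, 2000 ppm), N-(1-naphthyl)ethylenediamine dihydrochloride (NEDD, 2000 ppm) or pentachloronitrobenzene (PCNB, 8187 ppm) in feed, or 2,3-benzofuran (240 mg/kg) by gavage.

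Most cells of the adult lung are at rest, and its epithelium, endothelium, stroma and resident leukocytes are replaced slowly. A cell that enters division first makes deoxynucleotides and loads the replicative helicase, largely under E2F factors. It then makes the kinases, kinesins, kinetochore proteins and cytokinesis factors of mitosis, many of whose promoters carry CCAAT boxes, bound by NF-Y, and TTTGAA elements, bound by the DREAM complex. Corn oil is rich in linoleic acid, and fatty acids act on lipid genes through PPAR receptors and SREBP factors.

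Each array held the RNA of 1 animal, so that a p-value here sets the difference between groups against the spread between animals. Values are log2 signals of Affymetrix mouse arrays, on which a difference of 1 is a 2-fold difference. Of 18193 genes with a probe set of their own, 13434 passed a filter on low signal and were tested with limma. Each ± beside a difference is the limma standard error (SE), which pools the spread within all 6 groups of the study. Lung markers were bright in all 6 animals, with Sftpc (surfactant protein C, alveolar type 2 cells) at 14.55 to 14.62, Ager (alveolar type 1 cells) at 13.93 to 14.13, Scgb1a1 (club cells) at 14.41 to 14.51 and Pecam1 (endothelium) at 11.02 to 11.24. The RNA integrity number was 8.3 to 8.9 in the 5 animals for which the labels give one. The absorbance ratio of the RNA was under 1.9 for corn oil controls 22 and 24 and feed control 29, and over 1.9 for the other 3 animals. The 3' minus 5' difference of the actin control probe sets was 0.42 to 0.64 in the corn oil controls and 0.58 to 0.73 in the feed controls.

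Viewed over all genes, the control groups were close. The median absolute log2 difference between a pair of arrays was 0.11 to 0.19 both for the 6 pairs within a group and for the 9 pairs across groups. The median size of the difference between group means was 0.076, against a median range among 3 animals of 0.27 in the corn oil and 0.24 in the feed controls. Of the 13434 genes, 8 differed by over 1 on the log2 scale. No gene was called by limma at a Benjamini-Hochberg adjusted p under 0.05 (0 of 13434, or 0%). At an unadjusted limma p under 0.05, 142 genes were higher with corn oil (1.06% of those tested) and 129 lower (0.96%), where 5% in both directions together would pass if no gene differed. In 311 genes (2.32%) every corn oil animal lay above every feed animal, and in 660 (4.91%) every one lay below. That split depends on the scaling, with 251 above and 854 below after centring the arrays on their medians and 389 above and 521 below after quantile normalization. The mean was higher with corn oil for 41.7% of the genes tested, and the median difference over all of them was -0.02.

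The 12 genes with the smallest p that were higher with corn oil all serve cell division, although none passed the adjusted threshold. They were taken from the genes whose animals do not overlap, so the separation of their groups is a description. Differences ranged from 0.33 for Kif2c to 1.17 for Cep55. Of the genes of DNA synthesis, Rrm2, the regulated subunit of ribonucleotide reductase, measured 7.09, 6.77 and 6.82 in corn oil controls 22, 24 and 25 against 5.34, 6.09 and 6.01 in feed controls 27, 28 and 29. Its difference was 1.08 ± 0.23 (SE), or 2.12-fold, and its 2 other tested probe sets differed by 0.84 and 0.35. Mcm5, a subunit of the replicative helicase, measured 7.83, 7.59 and 7.68 with corn oil and 7.00, 7.08 and 7.32 with feed, a difference of 0.57 ± 0.13. The nearest animals of the groups were 0.68 apart for Rrm2 and 0.27 for Mcm5, closer than the group means in both cases.

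Genes of mitotic entry and chromosome structure were next. Cdk1, the kinase that drives entry into mitosis, measured 6.90, 6.60 and 7.23 with corn oil against 5.98, 6.30 and 5.80 with feed (difference 0.88 ± 0.21, 1.84-fold). Pbk, a mitotic protein kinase, measured 6.41, 5.86 and 6.77 against 5.22, 5.65 and 5.21 (0.99 ± 0.24, 1.98-fold). Corn oil control 24 was the lowest of its group and feed control 28 the highest of its own for both kinases. Top2a, the topoisomerase that disentangles sister chromatids, measured 7.84, 7.51 and 7.87 against 6.13, 7.15 and 6.60 (1.11 ± 0.26, 2.16-fold). Its range among the feed animals, 1.02, came close to the difference between the groups. Mki67, the chromosome surface protein used as a marker of cycling cells, measured 8.14, 7.92 and 7.79 against 6.52, 7.24 and 7.00 (1.03 ± 0.22). For Top2a, Mki67 and Rrm2 alike, feed control 27 was the lowest and feed control 28 the highest of the feed animals.

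Genes of the spindle, the kinetochore and the final cut between daughter cells complete the 12. Cenpf, a kinetochore protein, measured 6.02, 5.64 and 6.13 with corn oil against 4.73, 5.22 and 5.11 with feed (0.91 ± 0.23, 1.88-fold). Aspm, which focuses spindle poles, measured 5.32, 5.25 and 5.43 against 4.19, 4.80 and 4.69 (0.77 ± 0.19). Both were lowest in feed control 27. Kif2c, a kinesin that depolymerises microtubules at the kinetochore, measured 5.30, 5.28 and 5.25 against 4.92, 4.97 and 4.96 (0.33 ± 0.08). Kif2c had the smallest of these differences and the least spread, with a range of 0.05 in either group. Racgap1, a subunit of centralspindlin at the spindle midzone, measured 6.32, 6.39 and 6.44 against 5.70, 5.96 and 5.84 (0.55 ± 0.10). Arhgap11a, a RhoA-directed GTPase activating protein, measured 6.61, 6.69 and 6.69 against 6.15, 6.38 and 6.27 (0.39 ± 0.09). In both of these GTPase activating proteins corn oil control 22 was the lowest and feed control 27 the lowest of its group. Cep55, which recruits the abscission machinery to the midbody, had the largest difference of the 12, with 6.10, 6.00 and 5.61 against 4.36, 4.98 and 4.87 (1.17 ± 0.21, 2.25-fold). The low signal filter stood at 4.97 to 5.10 on the 6 arrays. All feed values of Aspm and Kif2c lay below it, and those of Cep55 below it or level with it. The corn oil values of these genes lay above it, so their differences and the spread of their feed values rest on signal near the floor.

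The Benjamini-Hochberg adjusted p from limma was 0.247 for Cep55 and Racgap1, 0.672 for Mki67 and Rrm2 and 0.847 to 0.896 for the other 8. For a single gene the smallest two-sided exact permutation p that 3 against 3 animals allow is 0.1. The 12 genes have 5 other probe sets that passed the filter, of Rrm2, Mcm5, Top2a and Kif2c, and all 5 were higher with corn oil. Of 13 further probe sets below the filter, 9 were higher and 4 lower, the latter belonging to Mcm5, Top2a, Aspm and Kif2c.

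**Figure D1:**
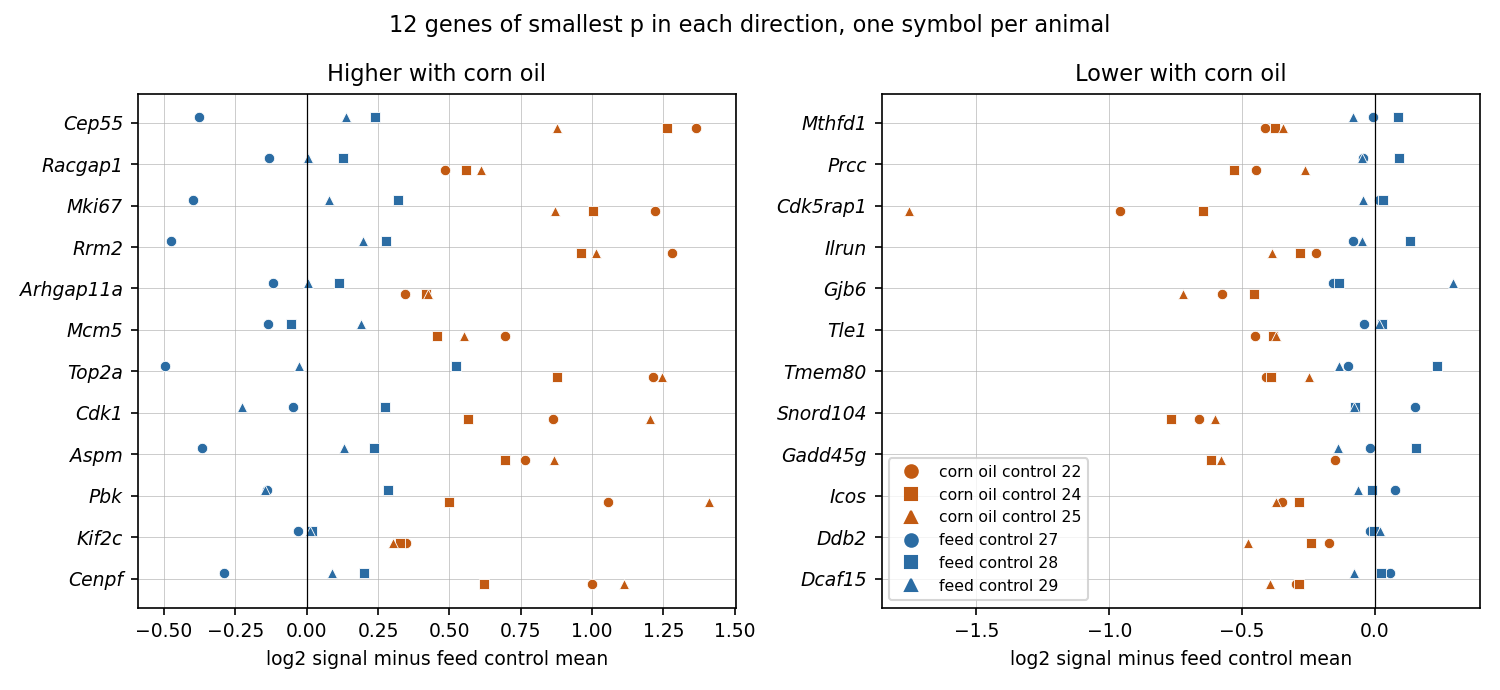
Log2 signal of each of the 6 control animals minus the mean of the feed controls (horizontal axis, log2), for the 12 genes of smallest p that were higher with corn oil and the 12 that were lower. Orange symbols are corn oil controls and blue symbols feed controls, 1 shape per animal. All 24 were picked from genes in which the colours do not overlap, and the feed animals spread wider for Top2a (range 1.02) than for Kif2c (0.05). The feed values of Aspm and Kif2c lay below the low signal filter.

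The wider cell cycle lists had the same direction. A list of 49 genes of chromosome segregation and cytokinesis had 48 on the array. Without a filter on signal all 48 were higher with corn oil, where 45.8% of the 18193 genes were. In 36 of the 48 the animals did not overlap (2.83% of all genes in this direction), and 30 had an unadjusted limma p under 0.05 (1.4% of all genes in this direction). Their median difference was 0.49, against -0.01 over all genes. The list was written with earlier results of these arrays known, so its counts are not independent evidence of the direction. The 39 members that passed the filter had a median of 0.38 and differences from 0.02 to 1.17, and 9 lay below it, among them Aurkb, Ttk, Ndc80 and Kif11. The mitotic cyclin Ccnb2, chosen after its values were seen, measured 6.21, 6.03 and 6.15 with corn oil against 5.17, 5.66 and 5.29 with feed (0.76 ± 0.21). The smallest differences, likewise chosen after they were seen, were those of Pttg1 (securin, 0.02 ± 0.10), Foxm1 (a transcription factor of mitotic genes, 0.05 ± 0.12) and Cenpa (the centromeric histone, 0.08 ± 0.17), each with overlapping animals.

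Genes of DNA replication and nucleotide supply differed less. Of 46 listed, 44 were on the array and 36 of these were higher with corn oil, 17 without overlap, while 1 (Orc6, of the origin recognition complex) was lower without overlap. Over all 18193 genes 514 were higher and 769 lower without overlap. The 37 that passed the filter had a median of 0.18. Mcm2, another helicase subunit, measured 7.47, 7.40 and 7.80 with corn oil against 7.18, 7.08 and 7.19 with feed (0.40 ± 0.11). The S phase cyclin Ccna2 measured 6.75, 6.26 and 6.61 against 5.68, 6.15 and 5.79 (0.67 ± 0.18), with corn oil control 24 and feed control 28 close together. Pcna, the sliding clamp, chosen after its values were seen, differed by 0.12 ± 0.09, and Pold1, of a replicative polymerase, by -0.004 ± 0.114, both with overlapping animals.

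**Figure D2:**
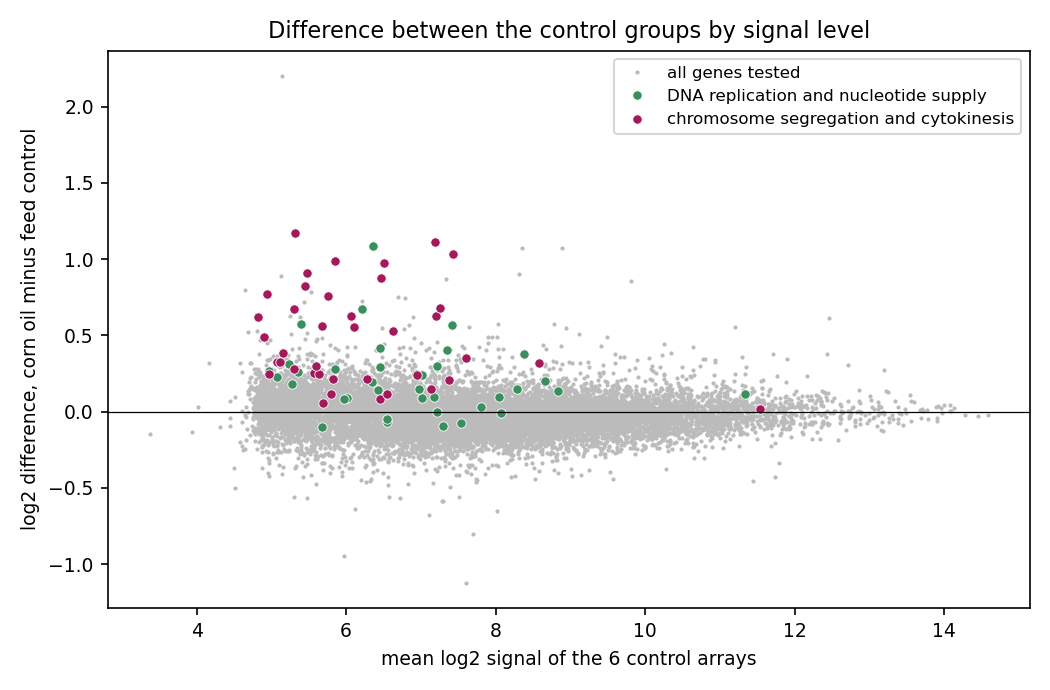
Difference between the mean log2 signals of the corn oil and feed controls (vertical axis, log2) against the mean signal of the 6 arrays (horizontal axis, log2), 1 point per tested gene. Genes of segregation and cytokinesis (magenta) all lie above 0, up to 1.17 for Cep55, replication genes (green) lie between -0.10 and 1.08, and other genes (grey) fall on both sides.

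Genes that hold cells out of the cycle split much as all tested genes did. Of 15 such genes, all tested, 5 were higher and 10 lower with corn oil, with a median of -0.06 that became 0.04 without corn oil control 25. Over all tested genes, 41.7% were higher and the median was -0.02. The 2 with an unadjusted limma p under 0.05 were both lower, where 0.96% of all tested genes were lower at that p. Cdkn1a (p21), an inhibitor of cyclin-dependent kinases and a target of p53, measured 9.61, 9.22 and 9.22 with corn oil against 9.63, 9.71 and 10.03 with feed (-0.44 ± 0.20). Cdkn1c (p57), of the same inhibitor family, measured 8.05, 8.28 and 8.23 against 8.32, 8.48 and 8.50 (-0.25 ± 0.09). The groups did not overlap in either gene, where 4.91% of all tested genes were lower without overlap. Corn oil control 22 and feed control 27 were only 0.02 apart for Cdkn1a. Over 12 tested p53 targets, Cdkn1a among them, 7 were higher and the median was 0.01.

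Averaged over the lists, the control animals kept apart. With each gene centred on its mean over all 18 arrays, the 39 tested segregation genes averaged 0.30, 0.11 and 0.27 in corn oil controls 22, 24 and 25 and -0.38, -0.15 and -0.28 in feed controls 27, 28 and 29. The 37 replication genes averaged 0.13, 0.04 and 0.13 with corn oil and -0.13, -0.12 and -0.09 with feed. Corn oil control 24 was the lowest of its group on both lists. Among RNAs with an absorbance ratio under 1.9 (2 corn oil animals against 1 feed animal), 36 of 39 segregation genes were higher with corn oil, with a median of 0.38. Over 1.9 (1 against 2), 38 of 39 were higher, with a median of 0.49. The replication medians in these classes were 0.15 and 0.24. In 28 of the 39 segregation genes every corn oil animal lay above every feed animal (2.32% of all tested genes). Such genes come out higher in any split of these animals, so the counts within classes are not separate evidence. In bulk tissue, fewer cells of a type and less RNA per cell cannot be told apart.

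The chemical groups show where the controls stood in the whole study. On the segregation list the feed controls had the lowest group mean, -0.27 ± 0.12 (SD, n = 3), followed by PCNB at -0.16 ± 0.17, NEDD at 0.01 ± 0.04, benzofuran at 0.04 ± 0.21, NDA at 0.15 ± 0.27 and the corn oil controls at 0.22 ± 0.10. The animals of each neighbouring pair of groups in this order overlapped. Of the benzofuran mice, the only other gavaged group, animal 10 (0.28) lay among the corn oil controls and animals 6 and 8 (-0.05 and -0.11) lay below all 3. The group means of Mki67 were 7.95 ± 0.18 for corn oil, 7.61 ± 0.50 for NDA, 7.45 ± 0.08 for NEDD, 6.99 ± 0.02 for benzofuran, 6.95 ± 0.35 for PCNB and 6.92 ± 0.37 for feed. Mki67 had the same extremes as the list, corn oil at the top and feed at the bottom. It was picked by its difference between these controls, so the match is not separate evidence.

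**Figure D3:**
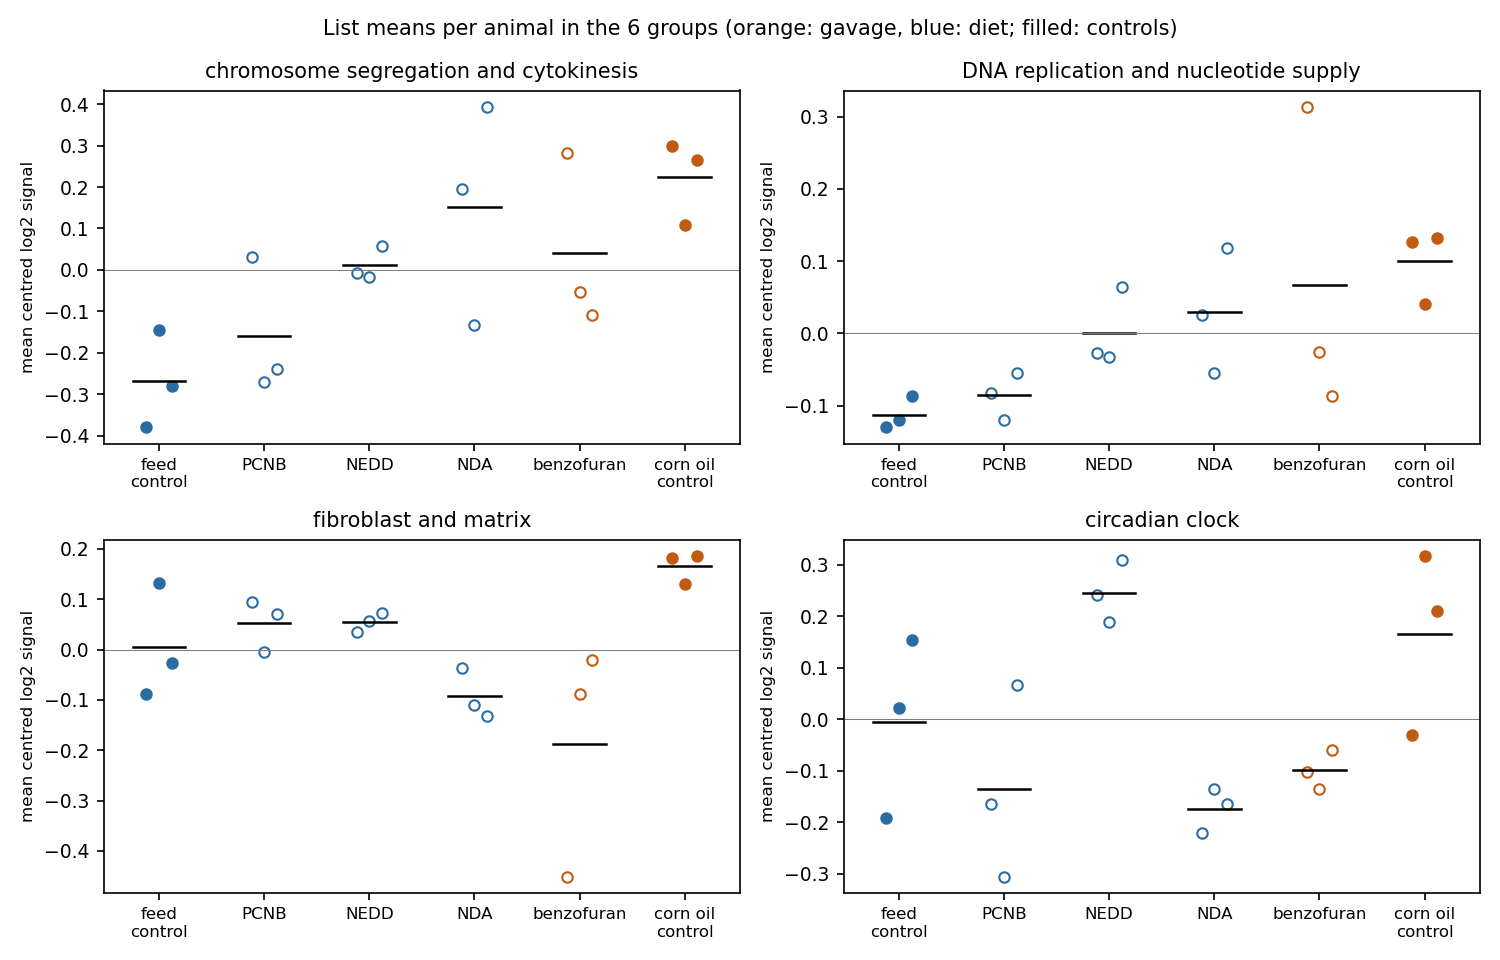
Mean over the tested genes of 4 lists in each of the 18 animals (vertical axis, log2 signal with each gene centred on its mean over all arrays), by group. Orange circles are gavaged and blue circles diet animals, filled for the controls, and bars are means of 3 animals. Feed controls had the lowest and corn oil controls the highest mean for segregation (-0.27 and 0.22), while on the clock list the control animals overlap.

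Promoters of the leading genes are shown because CCAAT and TTTGAA are the textbook elements of mitotic genes. RefSeq promoters of GRCm38.p6, from 250 bases before to 50 bases after the first listed start of a gene, were searched on both strands for CCAAT (or ATTGG) and TTTGAA (or TTCAAA), which can share an end base. Of 36 segregation genes with a promoter in the table, 29 (80.6%) held CCAAT, 27 (75%) TTTGAA and 24 (66.7%) both. Of 31 replication genes, 18 (58.1%) held CCAAT, 5 (16.1%) TTTGAA and 3 (9.68%) both. The promoters of 10789 tested genes held them in 37.8%, 11.8% and 4.63%, and all 27025 genes with a promoter in 37.9%, 18.1% and 7.12%. The 150 bases before the start of 4 genes with both elements come first below, then those of Rrm2 and Mcm5, of DNA synthesis, which hold CCAAT but no TTTGAA in that stretch. They read 5′ to 3′ on the gene's strand, with either element in capitals.
Mki67, chr7:135716380-135716529, minus strand: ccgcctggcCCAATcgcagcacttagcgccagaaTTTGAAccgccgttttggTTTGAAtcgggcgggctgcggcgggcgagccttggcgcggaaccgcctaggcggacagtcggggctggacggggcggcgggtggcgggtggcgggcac
Cdk1, chr10:69352913-69353062, minus strand: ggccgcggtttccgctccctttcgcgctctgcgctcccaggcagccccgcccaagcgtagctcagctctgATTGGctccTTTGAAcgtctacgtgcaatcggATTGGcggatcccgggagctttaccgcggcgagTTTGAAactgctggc
Top2a, chr11:99024190-99024339, minus strand: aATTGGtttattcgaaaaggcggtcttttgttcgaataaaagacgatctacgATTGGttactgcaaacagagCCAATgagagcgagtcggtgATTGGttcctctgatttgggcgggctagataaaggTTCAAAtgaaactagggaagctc
Arhgap11a, chr2:113848662-113848811, minus strand: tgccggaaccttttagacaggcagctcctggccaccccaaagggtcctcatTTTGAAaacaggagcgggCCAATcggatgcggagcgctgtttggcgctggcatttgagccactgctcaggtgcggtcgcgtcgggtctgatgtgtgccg
Rrm2, chr12:24708104-24708253, plus strand: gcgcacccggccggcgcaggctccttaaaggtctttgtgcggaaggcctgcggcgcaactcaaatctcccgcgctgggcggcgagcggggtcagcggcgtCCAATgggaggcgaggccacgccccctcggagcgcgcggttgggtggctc
Mcm5, chr8:75109359-75109508, plus strand: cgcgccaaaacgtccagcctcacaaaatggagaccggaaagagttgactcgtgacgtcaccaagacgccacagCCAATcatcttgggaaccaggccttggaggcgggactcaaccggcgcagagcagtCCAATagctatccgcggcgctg
Cdk1 carries 2 elements of each kind in this stretch, and Top2a 4 of the CCAAT kind with 1 of the other. Among the leading genes not shown, Racgap1, Aspm and Cenpf held only CCAAT in that stretch, Kif2c only TTTGAA and Cep55 neither. A match of letters is a description and not a bound site. Of the 12 leading genes 11 had a promoter in the table, and over its 300 bases 9 held CCAAT, 9 TTTGAA and 7 both, so that each of the 11 held at least 1 of the elements.

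Genes that were lower with corn oil came from many processes. Among genes whose animals do not overlap, the smallest p was 0.0012 for Mthfd1 (limma, unadjusted), a folate enzyme that feeds purine and thymidylate synthesis, and each of the 12 named by rank had an adjusted p of 1. Mthfd1 measured 10.05, 10.09 and 10.12 with corn oil against 10.46, 10.55 and 10.38 with feed, a difference of -0.38 ± 0.10, and its 2 other tested probe sets differed by -0.32 and -0.26. Cdk5rap1, which modifies mitochondrial transfer RNA, had the largest difference downward of all tested genes, with 7.21, 7.52 and 6.41 against 8.18, 8.20 and 8.12 (-1.12 ± 0.33). The feed animals lay within 0.08 of each other for Cdk5rap1 and the corn oil animals spread over 1.11. The probe set annotated to Snord104, a small nucleolar RNA, measured 6.79, 6.68 and 6.85 against 7.60, 7.38 and 7.37 (-0.68 ± 0.21). Whether it reads that RNA or another transcript was not tested. Gjb6, the gap junction protein connexin 30, measured 7.01, 7.13 and 6.86 against 7.43, 7.45 and 7.88 (-0.59 ± 0.17), with feed control 29 the highest.

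Other genes of the 12 were lower by smaller margins than Cdk5rap1, Snord104 and Gjb6. Tle1, a Groucho family corepressor, measured 8.59, 8.66 and 8.67 with corn oil against 8.999, 9.07 and 9.06 with feed (-0.40 ± 0.12), while its other tested probe set differed by -0.09. Gadd45g, a growth arrest gene, measured 7.82, 7.35 and 7.39 against 7.95, 8.13 and 7.83 (-0.45 ± 0.14), where corn oil control 22 came within 0.01 of feed control 29. Ddb2, a sensor of ultraviolet damage in DNA, measured 7.19, 7.12 and 6.88 against 7.35, 7.36 and 7.38 (-0.30 ± 0.10), and its other tested probe set differed by -0.36. The feed animals were close to each other for Tle1 and Ddb2, within 0.07 and 0.04. Icos, a costimulatory receptor of T cells, measured 5.52, 5.58 and 5.49 against 5.94, 5.85 and 5.80 (-0.34 ± 0.11), but its 2 other tested probe sets differed by 0.02 and 0.04. Prcc (-0.41), Tmem80 (-0.35), Dcaf15, a receptor of a ubiquitin ligase (-0.33), and Ilrun (-0.30) complete the 12. By size, Tnpo3, a nuclear import receptor (-0.65 ± 0.23), Clec4d, a C-type lectin of myeloid cells (-0.59 ± 0.21), and Hpcal4, a neuronal calcium sensor (-0.57 ± 0.21), joined Cdk5rap1, Snord104 and Gjb6. The 2 other tested probe sets of Tnpo3 differed by -0.41 and -0.88.

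Genes of lipid handling differed little, although one group had received oil for 13 weeks. Of 25 tested genes of fatty acid oxidation and PPAR targets, 5 were higher and 20 lower with corn oil, with a median of -0.05 and none at an unadjusted limma p under 0.05. Over all tested genes, 41.7% were higher. Angptl4, a PPAR target that inhibits lipoprotein lipase, measured 9.07, 8.91 and 8.46 with corn oil against 8.98, 9.32 and 9.40 with feed (-0.42 ± 0.21). Slc25a20, the carnitine carrier, measured 9.10, 9.15 and 8.98 against 9.34, 9.33 and 9.30 (-0.25 ± 0.13), and Acot1, an acyl-CoA thioesterase, 8.59, 8.77 and 8.60 against 8.86, 9.10 and 8.95 (-0.32 ± 0.19). The animals overlapped for Angptl4. In 3 of the 25 genes they did not overlap, all lower with oil, Slc25a20 and Acot1 among them. Of all tested genes, 4.91% were lower without overlap. Ppargc1a, a coactivator of oxidative genes, differed by 0.36 ± 0.23 with overlapping animals.

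Lipid synthesis and uptake showed the same small scale. Of 19 cholesterol synthesis genes, 5 were higher and 14 lower (median -0.09), those of smallest p being the pathway enzymes Pmvk (-0.22), Fdps (-0.14), Msmo1 (-0.21) and Idi1 (-0.17). Of 22 genes of fatty acid and triglyceride synthesis, 14 were higher (median 0.04, or -0.02 without corn oil control 24). Scd1, the stearoyl-CoA desaturase, measured 13.33, 13.26 and 13.26 with corn oil against 13.18, 13.16 and 13.12 with feed (0.13 ± 0.11, no overlap). Elovl6, a fatty acid elongase, measured 6.80, 7.90 and 6.76 against 6.39, 7.20 and 6.44 (0.48 ± 0.27), high in corn oil control 24 and feed control 28. Of 18 genes of lipid uptake and lipoprotein handling 6 were higher (median -0.05). Among these, Apoe, the apolipoprotein that macrophages secrete, measured 10.88, 10.87 and 10.94 against 11.03, 11.08 and 11.02 (-0.15 ± 0.10, no overlap). Of 15 genes of prostaglandin and leukotriene synthesis 7 were higher (median -0.03), and of 14 genes of lipid-laden macrophages 4 (median -0.05). No gene of these 5 lists had an unadjusted limma p under 0.05. Without overlap, 2 cholesterol genes, 2 uptake genes and 1 lipid-laden macrophage gene were lower (4.91% of all tested genes). In the other direction, 1 gene of fatty acid and triglyceride synthesis and 1 of prostaglandin and leukotriene synthesis were higher without overlap (2.32%). Over all tested genes, 41.7% were higher.

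Gavage involves handling, so stress hormone targets and immediate early genes were examined. Of 20 glucocorticoid targets, 3 were higher and 17 lower with corn oil (median -0.08), Gadd45g being the only one at an unadjusted limma p under 0.05. Over all tested genes, 41.7% were higher. In 3 of the 20 targets the animals did not overlap, all lower, where 4.91% of all tested genes were lower without overlap. Cebpb, a transcription factor induced by glucocorticoids, measured 10.14, 10.13 and 10.02 against 10.36, 10.35 and 10.18 (-0.20 ± 0.13) without overlap, and its relative Cebpd 9.89, 10.05 and 9.56 against 10.00, 10.09 and 10.16 (-0.25 ± 0.22) with overlap. Of 19 immediate early genes 11 were higher (median 0.04). Without overlap, 2 of them were higher and 1 lower, against 2.32% and 4.91% of all tested genes. Atf3, a stress-induced transcription factor, differed by 0.34 ± 0.22 and Nr4a1, an orphan nuclear receptor, by 0.30 ± 0.26, both without overlap, and neither had an unadjusted p under 0.05.

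Clock genes split the animals more than the groups. Arntl (Bmal1), of the positive arm of the clock, measured 8.37, 6.78 and 6.73 in corn oil controls 22, 24 and 25 and 8.14, 8.09 and 8.06 in the feed controls (-0.80 ± 0.32). Dbp, a clock output in antiphase to Arntl, measured 7.47, 9.76 and 9.46 against 7.10, 7.87 and 8.49 (1.07 ± 0.67). Corn oil control 22 thus lay beside the feed animals, and the other 2 corn oil animals lay apart. Hlf, a relative of Dbp, measured 6.50, 7.60 and 7.37 against 6.13, 6.36 and 6.76 (0.74 ± 0.24), and Per2, a repressor of the clock, 6.71, 7.56 and 7.40 against 6.46, 6.70 and 7.15 (0.45 ± 0.23), with the same animals apart. Of 19 clock genes 14 were higher (median 0.23), Hlf and Bhlhe40 at an unadjusted limma p under 0.05, and Arntl was the one lower. Among all tested genes 41.7% were higher, and 1.06% were higher and 0.96% lower at that p. The groups overlapped in every clock gene. Without corn oil control 22 the upward count of 2 was 8, and it was 1 on leaving out corn oil control 24, corn oil control 25 or feed control 27. The downward count of 1 was 2 without corn oil control 22 and 0 without corn oil control 24, corn oil control 25 or feed control 27. Among RNAs with an absorbance ratio under 1.9, 7 of the 19 genes were higher (median -0.03), and over 1.9, 15 (median 0.31). The labels give no hour of sampling.

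Of 21 fibroblast and matrix genes, none called at the adjusted threshold, 16 were higher with corn oil, with a median of 0.20 (41.7% higher and a median of -0.02 over all tested genes). The animals did not overlap upward in 8 of the 21 (2.32% of all genes) and downward in none (4.91%). Of the 9 collagens on the list 8 were higher and Col5a1 (-0.04 ± 0.15, overlapping) was not, and the 4 of smallest p on the list follow. Col3a1, of fibrillar collagen III, measured 12.24, 11.99 and 12.00 with corn oil against 11.75, 11.86 and 11.58 with feed (0.35 ± 0.13). Col1a2, of collagen I, measured 11.41, 11.46 and 11.56 against 11.15, 11.18 and 11.02 (0.36 ± 0.14), and Col6a2, of the microfibrillar collagen VI, 9.87, 9.82 and 9.98 against 9.44, 9.50 and 9.67 (0.36 ± 0.15). None of these 3 overlapped between the groups. Col14a1, of a fibril-associated collagen, measured 7.84, 8.06 and 8.08 against 7.30, 7.85 and 7.56 (0.42 ± 0.15), with corn oil control 22 just below feed control 28. These 4 had an unadjusted limma p under 0.05 (1.06% of all genes upward), and the elastin gene Eln, named after its value was seen, was the one lower (-0.40 ± 0.18, animals overlapping). The upward count of 4 was 2 without corn oil control 25 or feed control 27, 8 without benzofuran animal 10, among the control arrays alone or with the absorbance class as a block, and the downward count of 1 was 0 without corn oil control 24, corn oil control 25, feed control 28 or feed control 29 and 2 without feed control 27. The median lay between 0.13 and 0.28 in every alternative computed. Pdgfra (-0.09 ± 0.17) and Tcf21 (-0.04 ± 0.11), genes of fibroblast identity on the same list chosen after their values were seen, overlapped between the groups.

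Serpinh1 (Hsp47), the collagen chaperone, measured 11.14, 11.17 and 11.02 with corn oil against 10.77, 10.63 and 10.90 with feed (0.34 ± 0.12) without overlap. It was the only one of 14 heat shock chaperones at an unadjusted limma p under 0.05 (1.06% of all tested genes upward). Of the 14, 11 were higher (median 0.09), where 41.7% of all tested genes were. With Serpinh1, 3 of the 14 were higher without overlap (2.32% of all tested genes). On the matrix list, the corn oil controls averaged 0.17 ± 0.03 (SD, n = 3) with genes centred over the 18 arrays, the feed controls 0.01 ± 0.11 and benzofuran -0.19 ± 0.23, where animal 10 stood at -0.45. Feed control 28 (0.133) lay just above corn oil control 24 (0.130), the lowest of its group on that list, so the groups overlapped. The matrix medians within the classes of absorbance ratio were 0.21 and 0.20.

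Of 21 interferon response genes, none called at the adjusted threshold, 17 were higher with corn oil and 4 lower (median 0.09), where 41.7% of all tested genes were higher. The animals did not overlap upward in 5 of them (2.32% of all genes). Gbp2, a guanylate binding protein, measured 9.53, 9.62 and 9.53 with corn oil against 9.30, 9.31 and 9.28 with feed (0.26 ± 0.12). Gbp3, of the same family (0.30 ± 0.13), Irgm1, an immunity-related GTPase (0.26 ± 0.12), and Tap1, the peptide transporter of antigen presentation (0.26 ± 0.10), likewise did not overlap. These 4 had an unadjusted limma p under 0.05 (1.06% of all genes upward). That count was 0 without feed control 29, 1 without corn oil control 22, corn oil control 25 or feed control 28, and 2 without corn oil control 24, in which case 1 gene was lower at that p, or with arrays centred on their medians. Ifit1 (0.09 ± 0.15) and Irf7 (0.02 ± 0.13), of the type I response and chosen after their values were seen, overlapped. Of 21 cytokines and chemokines 9 were higher (median -0.02), and Cxcl14, a chemokine of epithelia, was lower without overlap, at 7.99, 7.90 and 8.21 against 8.45, 8.38 and 8.23 (-0.32 ± 0.13). With Cxcl14, 2 of these 21 genes were lower without overlap, where 4.91% of all tested genes were.

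**Figure D4:**
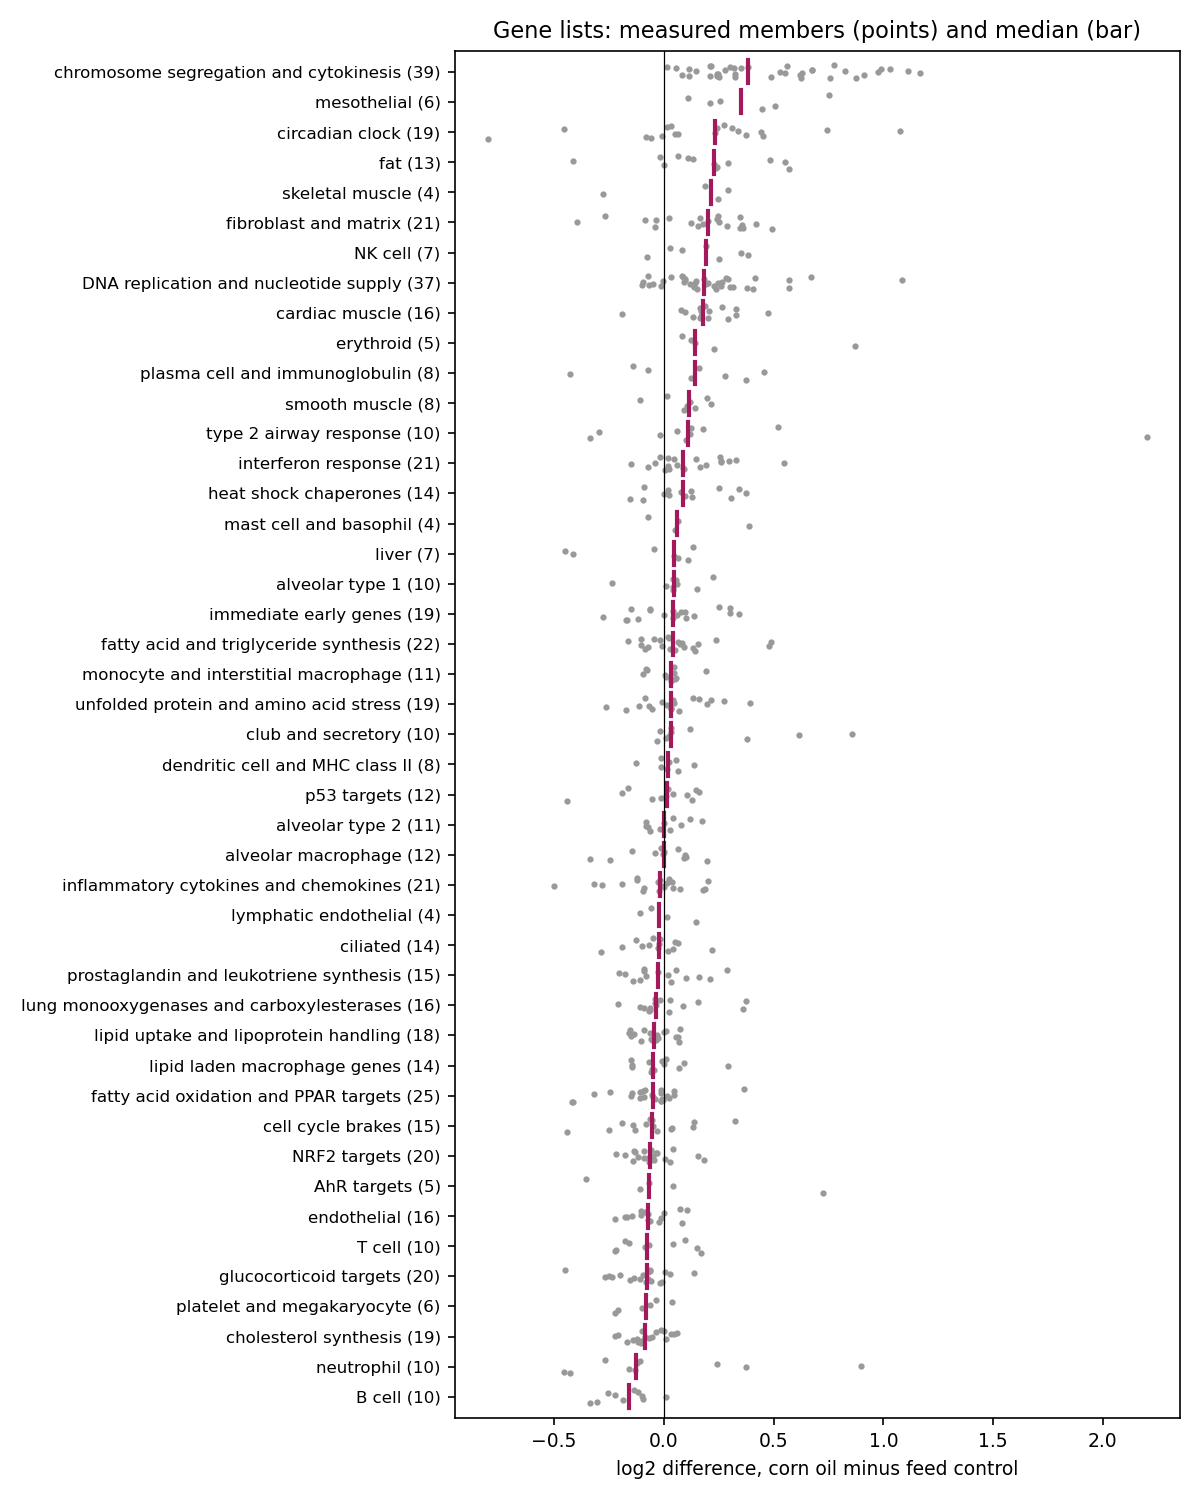
Log2 difference, corn oil minus feed control (horizontal axis), of each tested member of the gene lists with at least 4 of them, with the median of each list as a bar. The segregation list has the highest median (0.38) and no member below 0, the mesothelial list follows at 0.35 with 6 genes, and the clock list (0.23) spreads from -0.80 to 1.07.

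Amino acid and detoxification genes differed in few members. Among 19 genes of unfolded protein and amino acid stress, Psat1, an enzyme of serine synthesis, measured 6.97, 7.24 and 7.12 with corn oil against 6.60, 6.95 and 6.60 with feed (0.39 ± 0.15) without overlap. The mitochondrial folate enzyme Mthfd2 measured 6.54, 6.34 and 6.55 against 6.08, 6.19 and 6.34 (0.27 ± 0.12), with corn oil control 24 level with feed control 29. Without overlap, 1 of the 19 genes was higher and 2 were lower. Ces1g, a carboxylesterase, measured 5.76, 5.74 and 5.59 against 5.48, 5.13 and 5.37 (0.37 ± 0.12), the only one of 16 monooxygenase and carboxylesterase genes at an unadjusted limma p under 0.05. Of the 16, 1 was higher and 1 lower without overlap. Of 20 NRF2 targets 5 were higher (median -0.06), and Gsta3, a glutathione transferase, was lower without overlap (-0.22 ± 0.10). Among all tested genes 41.7% were higher, and 2.32% were higher and 4.91% lower without overlap. At an unadjusted limma p under 0.05, 1.06% were higher and 0.96% lower.

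Several marker lists of other cells differed in their medians, and their summed signals overlapped between the groups. All 6 mesothelial genes were higher with corn oil, and the median of 0.35 became -0.04 without feed control 27, in which Muc16, a mesothelial mucin, measured 4.76. The log2 of the summed mesothelial signal was 11.72 to 12.32 in the corn oil and 11.53 to 11.84 in the feed controls. Of 16 cardiac muscle genes 15 were higher (median 0.18, or -0.04 without corn oil control 24), with a summed signal of 13.22 to 13.96 against 12.91 to 13.48. Of 10 B cell genes 1 was higher (median -0.16, summed signal 10.33 to 10.59 against 10.36 to 10.80). All 5 tested erythroid genes were higher (median 0.14, summed signal 10.53 to 11.78 against 10.60 to 11.08), and 4 more, among them Hba-a1 of haemoglobin, lay below the filter. The erythroid list was led by Slc4a1, the red cell anion exchanger, at 8.91, 7.25 and 7.15 against 7.26, 6.59 and 6.85 (0.87 ± 0.50), highest in corn oil control 22. Of the thymocyte genes Ptcra, Dntt, Rag1 and Rag2 lay below the filter, and the summed signal of the 2 tested was 7.92 to 8.39 against 8.20 to 8.35. The part of these cells in the cell cycle and matrix differences was not tested.

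Leukocyte and epithelial markers differed little otherwise. Of 7 NK cell genes 6 were higher (median 0.19, or -0.06 without corn oil control 22), led by Gzma, a granule protease, at 11.17, 9.99 and 10.48 against 10.25, 10.32 and 9.90. Of 10 neutrophil genes 3 were higher (median -0.13), Ltf the most (0.90, animals overlapping). The calgranulins S100a8 (-0.43 ± 0.25) and S100a9 (-0.45 ± 0.26) were lower with corn oil without overlap, at an unadjusted limma p of 0.106 and 0.103, where 4.91% of all genes were lower without overlap. The medians were 0.001 over 11 alveolar type 2 genes and -0.001 over 12 alveolar macrophage genes. Krt15, a keratin of basal cells, measured 5.01, 6.80 and 4.91 against 4.66, 4.68 and 4.72 (0.89 ± 0.39), most of it from corn oil control 24.

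Some of the largest differences came from single animals. Clca1, a secreted product of goblet cells, had the largest difference of all tested genes, 2.20 ± 0.84 (limma adjusted p 1), with 5.80, 9.06 and 3.88 in the corn oil controls and 3.35, 5.31 and 3.48 in the feed controls. Its SE pools the spread of all 6 groups. The SD of Clca1 was 2.62 in the corn oil and 1.09 in the feed controls, but 0.14 to 1.00 in the chemical groups. Clca1 was highest in corn oil control 24 and, among the feed animals, in feed control 28. The same animals were highest in their groups for other genes of airway secretion. Bpifa1, an antimicrobial protein of the upper airway, measured 12.26, 13.58 and 12.48 against 12.33, 13.20 and 10.94. Reg3g, an antimicrobial lectin, measured 8.57, 10.78 and 8.91 against 8.50, 9.69 and 6.85, and Ltf, lactoferrin, which is also on the neutrophil list, 8.00, 10.22 and 8.06 against 7.51, 8.94 and 7.14. The ranges within a group reached 5.18 for Clca1 and 2.84 for Reg3g, wider than the differences between group means.

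Genes of tissues beside the lung varied in the same manner. Adipoq, the adipocyte hormone adiponectin, was highest in corn oil control 24 and feed control 28, at 8.38, 10.09 and 8.72 against 8.63, 9.32 and 7.53, and so was Pck1, of gluconeogenesis and fat, at 5.16, 7.67 and 4.92 against 5.02, 6.62 and 4.67. The fat list had a median of 0.23 over 13 genes, which became -0.15 without corn oil control 24 and -0.01 without feed control 29. Nppa, the atrial natriuretic peptide, was also highest in these animals, at 6.59, 8.30 and 6.44 against 6.52, 8.997 and 6.38. Mesothelial genes followed another pair, with Upk3b, a uroplakin, at 9.25, 8.47 and 10.40 against 7.75, 9.35 and 9.49 and Lrrn4 at 6.50, 5.64 and 7.53 against 5.20, 7.19 and 6.66, highest in corn oil control 25 and lowest in feed control 27. The heat shock gene Hspa1a measured 9.46, 7.31 and 6.69 against 8.92, 7.70 and 7.11, and its neighbour in sequence Hspa1b 11.48, 9.81 and 8.88 against 11.12, 9.86 and 9.65, high in corn oil control 22 and feed control 27. Hspa1a and Hspa1b are near-identical copies, and their probe sets may not tell them apart. Cyp1a1, the cytochrome induced through the AhR, measured 6.29, 7.64 and 5.81 with corn oil and 4.93, 5.51 and 7.12 with feed, with wide ranges in both groups (1.83 and 2.18).

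**Figure D5:**
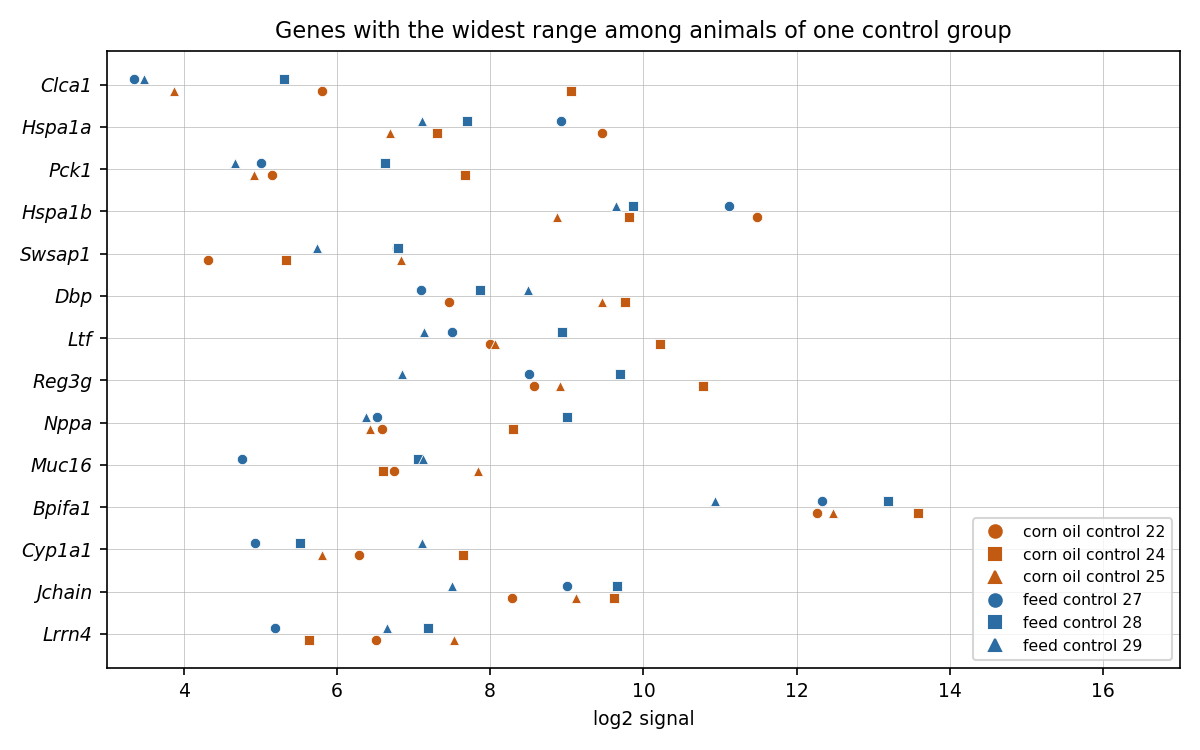
Log2 signal (horizontal axis) of the genes with the widest range among the 3 animals of either control group, 1 symbol per animal, orange for corn oil and blue for feed controls. Corn oil control 24 and feed control 28 lie highest in their groups for Clca1, Pck1, Ltf, Reg3g, Nppa, Bpifa1 and Jchain, and both groups span over 1.3 for each of these genes.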

How the data were processed

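Right lung lobes of 18 mice were measured on 18 arrays, 3 per group. RNA was extracted with Trizol and purified on Qiagen Rneasy columns, per the labels' protocols. The values are the deposited log2 signals per probe set, with the scale judged from their range of 2.48 to 14.78. The method that summarised and normalized them is not given in the sources used here, so its effect on the values cannot be told. Array medians differed by 0.125, and the values were kept as deposited. Probe sets were named from the platform annotation (34945 with 1 gene symbol, 932 with several, 9160 with none, besides 64 controls). Each of 18193 genes was represented by its probe set of highest mean, and 13434 genes were kept whose signal passed the 40th percentile of all probe sets on 3 arrays or more. The number of arrays limits the precision.

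limma 3.58.1 in R 4.3.3 was fitted to 6 group means with 12 residual degrees of freedom, tested the corn oil minus feed contrast and adjusted p over all tested genes (Benjamini-Hochberg). The fit was checked on simulated data. Named genes are the 12 of smallest p and the 6 of largest difference in each direction without overlap between groups, up to 4 members of smallest p per list, and the 8 of widest range per control group, with clone names skipped. The members and lists were chosen with earlier results of these data known. Alternatives covered the arrays used, the low signal filter, scaling, probe set choice, array weights, RNA quality terms and a robust trend.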

Additional observations from a re-analysis of the deposited data

How the results depend on the processing

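No alternative called more than 1 gene by limma at an adjusted p under 0.05, with a range of 0 to 1 when 1 control array was left out (Leo1, without corn oil control 22). Of 1574 values of 84 named genes under 19 alternatives, 1555 kept their direction and side of the threshold and 19 reversed, all in genes whose range within a group was wide. Cep55 ranged from 0.98 to 1.31 with a lowest adjusted p of 0.111, Racgap1 from 0.49 to 0.62 (0.162), Mki67 from 0.83 to 1.19 (0.212) and Rrm2 from 0.76 to 1.22 (0.212).

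Genes higher with corn oil at an unadjusted p under 0.05 numbered 254 without a filter, 72 with the filter at the 60th percentile, 244 over every probe set, 278 with array weights, 264 with the actin difference and 248 with the absorbance class as a block. Genes lower numbered 348 without benzofuran animal 10, 217 over every probe set, 418 with array weights, 195 with the absorbance ratio, 235 with the actin difference and 463 with the absorbance class as a block. Leaving out 1 control array gave 145 to 208 higher and 88 to 187 lower. The segregation median was 0.36 to 0.51 without 1 array and 0.49 without a filter, and its 22 genes at that p were 7 with the filter at the 60th percentile, which tests fewer genes, and 19 to 23 without 1 array. The replication median was 0.14 to 0.20 without 1 array and 0.22 with the actin difference. Reversals without 1 array ranged from -0.79 to 0.66 for Nppa, -0.91 to 0.47 for Hspa1a, -0.87 to 0.43 for Hspa1b, -0.39 to 1.08 for Pck1, -0.33 to 0.75 for Jchain, -0.37 to 0.67 for Lrrn4 and -0.025 to 1.16 for Muc16. With array weights Hspa1a was 0.43, Hspa1b 0.40 and Lrrn4 -0.42, and with the actin difference Nppa was 0.04 and Lrrn4 -0.27. Where no cause is named, the cause was not tested. No paired analysis was possible because animal numbers are not shared between the groups.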
